A study of Oryza sativa with 8 samples.

Results

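Among the genes of wild type rice seedlings, 51 rows of the count table lost nearly all their reads in drought and had them again after rewatering. They were picked from a table of 59903 rows by their mean CPM, a gene's count divided by the library total and scaled to 1000000. The mean had to be at least 20 and under 500 CPM under normal watering, under 1 CPM in drought, and more than 0.5 and less than 2 times the normal mean in recovery. All 6 wild type libraries chose the rows, so levels and fold changes in these libraries describe the choice and carry no test. The table pairs no ID with a gene name, and 0 of its IDs matched a reference of 39387 rice genes, so the function of the members is not given, and neither the tissue label nor the targeted gene of the mutant was checked. An ID below is the label of a row, and because wild type and osbzip23 columns did not line up by row, it may not be the gene that the wild type counts beside it came from.

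The recovery, drought and normal groups were seedlings of the wild type MH63, an indica rice variety. Recovery seedlings had 15 days without watering and then 4 days of rewatering, drought seedlings had 15 days without watering down to about 5% relative soil water, and normal seedlings were watered throughout, all after 14 days of ordinary growth. A further group held drought-treated seedlings of osbzip23, a line named after OsbZIP23, a transcription factor that acts in abscisic acid signalling, and each group had 2 libraries from at least 30 seedlings each. Drought and normal seedlings were harvested together while recovery seedlings were taken 4 days later, with no normally watered plants of their own day among the samples analysed here.

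Plants that lose water close their stomata and signal through abscisic acid, and growth, cell division and photosynthesis slow down. Transcripts for growth and carbon fixation commonly fall in this state, while those for protective proteins rise. On rewatering, plants that survived resume growth and many transcripts return. Which of these processes the members belong to cannot be read from the table.

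The wild type libraries held 37400784 to 42894245 counts and the osbzip23 libraries 14653876 and 17009931. Wild type replicates had r = 0.998 within each group on log2(CPM + 1) across rows. Osbzip23 replicate 1 and wild type drought replicate 1 correlated at r = -0.011 across rows up to row 40897, so a row was not taken to stand for the same gene in osbzip23 and wild type columns, and the wild type libraries were fitted alone. Drought replicate 1 of the wild type also has its last count on row 40897. The 19006 rows after it hold 0 counts in that library and 1496 in drought replicate 2, against 22990 and 21014 in the normal libraries. Of the 4 rows in that stretch with 20 to 500 CPM under normal watering, all 4 were under 1 CPM in drought and 2 are members. Whether their 0 in drought replicate 1 is a measured absence cannot be told apart from their place in the table, and 49 members remain without them.

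Together the members made up 0.00248% and 0.00244% of the counts in the drought libraries, against 0.206% and 0.205% in the normal libraries. The drought share was lower by 83.4-fold, and both drought libraries lay far below both normal ones. In recovery the members held 0.265% and 0.263% of the counts, against the same 0.206% and 0.205% under normal watering. The recovery share was 1.28 times the normal one and 107-fold above the drought share. Without the 2 members after row 40897 the shares were 0.257% ± 0.00114 in recovery, 0.00246% ± 0.0000344 in drought and 0.200% ± 0.000763 under normal watering (SD, n = 2 each). In RNA from bulk seedlings, fewer cells of a type and less RNA per cell cannot be told apart.

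**Figure D1:**
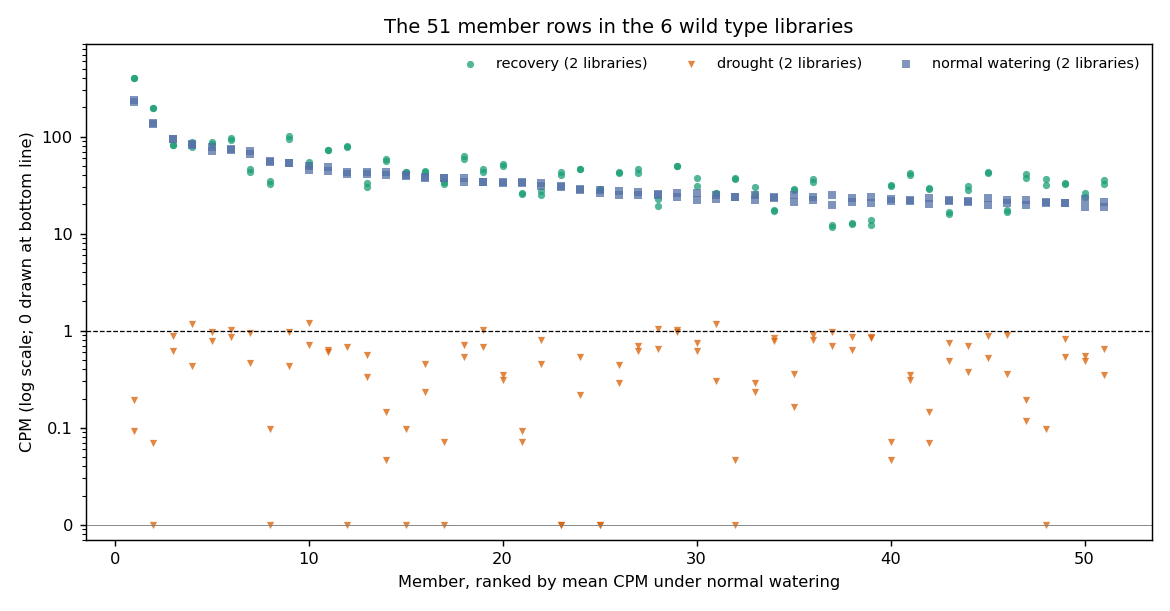
CPM of each of the 51 members (log axis, with 0 drawn at the bottom line) in the 2 recovery, 2 drought and 2 normal libraries, ranked by the normal mean; the dashed line is 1 CPM. No drought point lies above 1.21 CPM, while no recovery point lies below 11.6 CPM and no normal point below 18.8 CPM.

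All 51 members had both drought libraries below both normal ones, as had 46.2% of tested rows, and both below the recovery ones, as had 40.5%. Across members the drought mean ran from 0 to 0.993 CPM with a median of 0.534, against a normal mean of 20.1 to 233.4 CPM with a median of 26.5. What was left in drought was 1.31% of the normal level in the median member and 3.93% at most. Over all 8594 rows with 20 to 500 CPM under normal watering, the median row stood at 90.1% of normal in drought. The recovery mean ran from 11.9 to 404.6 CPM with a median of 37.0 CPM. All 51 members passed the filter on low counts, and edgeR called 51 lower in drought than under normal watering, where 37.3% of all 22898 tested rows were called lower. It called 51 higher in recovery than in drought, where 38.2% of tested rows were called higher. The rule used both contrasts, so nothing is read from these counts.

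Most members were modest in level before drought. Under normal watering 42 members lay between 20 and 50 CPM, 7 between 50 and 100 CPM and 2 above 100 CPM. Rows of every level were lost in drought at a low rate, lower at higher levels. Under 1 CPM in drought were 64 of 4170 rows (1.53%) of the lowest band, 18 of 2453 rows (0.734%) of the middle band and 4 of 1971 rows (0.203%) of the highest. A limit set in CPM asks for a larger fold of an abundant row, so these shares do not compare equal folds.

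The most abundant member in recovery and under normal watering was OsMH_09G0153100, on row 35575. It had 0.192 and 0.0933 CPM in drought (8 and 4 counts), against 240.6 and 226.2 CPM under normal watering. The drought level was 1648-fold lower, with a 95% counting interval of 943 to 3189. In recovery it had 405.1 and 404.1 CPM, against the same normal values, so both recovery libraries lay above both normal libraries, at 1.73 times the mean. Against drought, the recovery level was 2852-fold higher, with a counting interval of 1633 to 5520.

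The next in both groups was OsMH_01G0550400, on row 4386. It had 0 and 3 counts in drought, against 137.5 and 134.2 CPM under normal watering, which puts drought 3832-fold lower (95% counting interval 1311 to 18583). In recovery it had 195.1 and 198.6 CPM, 5550-fold above the 3 drought counts (counting interval 1899 to 26917). Its recovery libraries also lay above its normal ones, at 1.45 times the mean. These 2 members held 22.8% of all member counts in recovery and 0.721% in drought, against 18.0% under normal watering. With both left out, the remaining 49 members still had 0.204% ± 0.00135 of the counts in recovery and 0.00244% ± 0.0000291 in drought, against 0.168% ± 0.000323 under normal watering (SD, n = 2 each).

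Residual drought reads were few but mostly present. In drought, 42 members had counts in both libraries, 7 in 1 library and 2 in none. The drought mean was under 0.1 CPM in 11 members, from 0.1 to under 0.5 CPM in 13 and from 0.5 CPM up to the limit in 27. At this depth 1 CPM stands for 41.7 counts in drought replicate 1 and 42.9 counts in replicate 2, and the highest count of any member was 49 and 52. A single drought library passed 1 CPM in 7 members whose mean stayed under it.

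**Figure D2:**
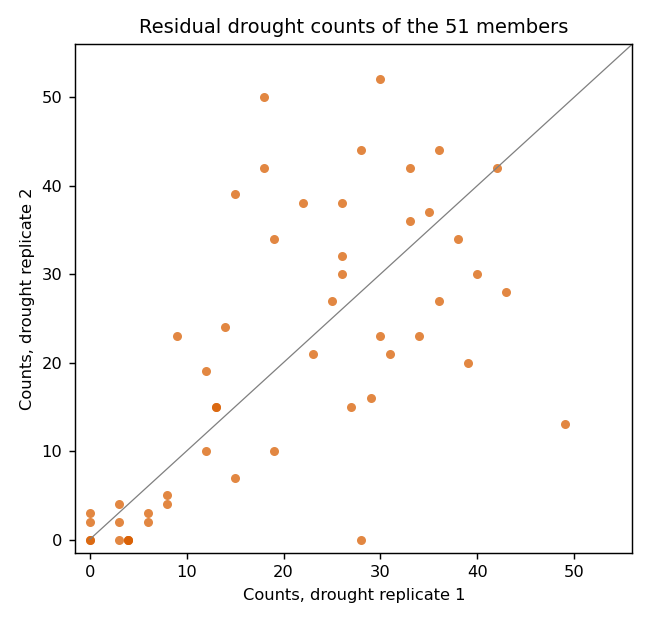
Counts of the 51 members in drought replicate 1 and drought replicate 2, with a line of equal counts. Points scatter on both sides of the line and none passes 49 or 52 counts.

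One member on row 8317, with 0 counts in both drought libraries, had 29.9 and 31.3 CPM under normal watering. Set against 3 counts over the drought group, its drought level was at least 863-fold lower than normal and 1178-fold lower than its recovery level of 42.9 and 40.6 CPM. The other, on row 51075, is 1 of the 2 members after row 40897. It had 28.1 and 26.02 CPM under normal watering, and on the same floor its drought level was at least 763-fold lower. That floor spans both drought libraries, so this bound holds only if the 0 in drought replicate 1 was a measured absence. These floors and all counting intervals cover counting error only.

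Drought replicates differed by more than recovery or normal replicates did, at far lower counts. Among 34 members with at least 10 counts in each drought library, the larger CPM was 1.47 times the smaller in the median member and 3.88 times at most. For the same 34 members the median was 1.06 in recovery and 1.07 under normal watering, with maxima of 1.24 and 1.26. Neither drought library was consistently the higher one, with replicate 1 above replicate 2 in 26 members and below it in 23. Across members the drought and normal levels had a Spearman rho of 0.02 over 51 rows. The rule kept drought means under 1 CPM, so this rho covers a narrow range of low counts and no relation is read from it. Recovery and normal levels ranked alike (rho 0.70), as the limits on their ratio require in part.

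Recovery stood above normal in most members. Of the 51, 36 had both recovery libraries above both normal libraries, 14 had both below, and 1 overlapped. Over tested rows, 21.6% had recovery above normal without overlap and 51% had it below. The median member had a recovery level 1.30 times normal, with quartiles of 0.881 and 1.59. The 8594 rows with 20 to 500 CPM under normal watering had a median of 0.858, and 18 members (35.3%) reached 1.5 times normal or more, as did 4.28% of those rows. Within 1.25-fold of normal lay 15 members (29.4%), against 57.4% of the 8317 rows that met the same limits on level and recovery ratio. The rule bounds this ratio, so these are descriptions of where the members fall inside the bounds.

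**Figure D3:**
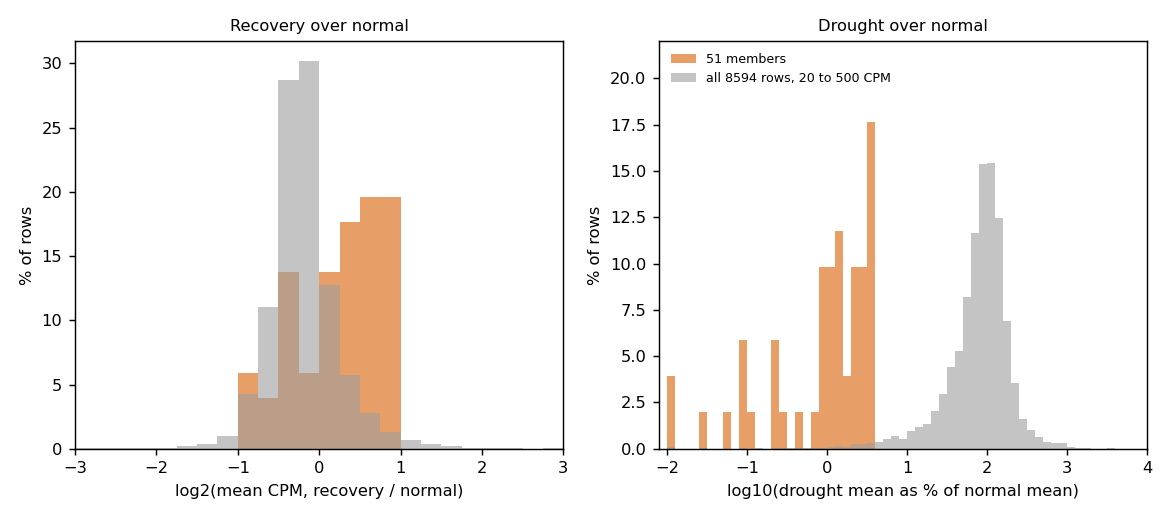
Share of rows (percent) by log2 of the recovery mean over the normal mean (left) and by log10 of the drought mean as a percent of the normal mean (right), for the 51 members and for all 8594 rows with 20 to 500 CPM under normal watering; the outermost bins also hold values beyond them. Members lie at 3.93% of normal or less in drought, and most have a recovery level above normal where most other rows lie below.

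The scale matters for this ratio. Relative to column totals, TMM scaling moved recovery over normal up by 0.19 on the log2 scale over all tested rows. On the TMM scale 38 members were above normal and 13 below, with a median ratio of 1.48, against 0.979 for the rows with 20 to 500 CPM. With TMM, edgeR called 35 members higher in recovery than under normal watering, where 18.1% of tested rows were called higher, and 5 lower, where 16.7% were. Scaled to library size alone it called 28 higher and 10 lower, where 11.6% and 32.1% of tested rows were called. With the osbzip23 libraries in the fit the counts were 20 and 2, where 1868 and 1363 of 33074 tested rows were called. That fit takes its filter and its estimate of spread partly from columns whose rows did not line up with the wild type rows.

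The members with the highest ratio of recovery to normal were OsMH_05G0338900 and OsMH_02G0002600. OsMH_05G0338900 had 43.2 and 42.1 CPM in recovery, against 23.0 and 19.9 CPM under normal watering, a ratio of 1.99. Its drought libraries held 0.528 and 0.886 CPM. OsMH_02G0002600 had 49.4 and 49.99 CPM in recovery, against 26.5 and 24.01 CPM under normal watering, a ratio of 1.97, and its drought mean of 0.993 CPM was also the nearest to the drought limit. Both stood just inside the limit of 2, and on the TMM scale 6 members passed it.

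At the other end were OsMH_05G0303800 and OsMH_03G0558100, which regained least. OsMH_05G0303800 had 12.3 and 11.6 CPM in recovery, against 19.95 and 25.1 CPM under normal watering, a ratio of 0.530. OsMH_03G0558100 had 12.6 and 13.0 CPM in recovery, against 21.3 and 23.6 CPM under normal watering, a ratio of 0.569. Their drought levels, 0.829 ± 0.184 and 0.746 ± 0.165 CPM (SD, n = 2 each), were in the upper part of the members' range. One member of higher level, with rank 4 by normal mean, came back to 78.5 and 87.1 CPM in recovery, against 83.9 and 81.8 CPM under normal watering, and was the one whose recovery and normal libraries overlapped.

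Members at different drought levels overlapped in how far they came back. The 13 members from 0.1 to under 0.5 CPM in drought had a median recovery of 1.61 times normal, and 12 of them were above normal. The 11 members under 0.1 CPM had a median of 1.36 with 8 above normal, and the 27 members from 0.5 CPM up had a median of 1.16 with 16 above normal. Spearman's rho between drought level and the recovery ratio was -0.16 over the 51 rows, which share the same libraries.

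The members are the larger part of the rows that went off in drought. In all, 86 of the 8594 rows with 20 to 500 CPM under normal watering (1.001%) were under 1 CPM in drought. Of these, 51 (59.3%) are members, 21 (24.4%) had a recovery level at 2 times normal or more, and 14 (16.3%) were at 0.5 times normal or less. Over all 8594 rows of that normal level, 96.8% had a recovery level between 0.5 and 2 times normal, a larger share than among the 86. The 21 had a median of 91.2 CPM in recovery, against a median of 39.9 CPM under normal watering, and the highest ratio was 4.77. The 14 had a median of 15.0 CPM in recovery, against 53.0 CPM under normal watering, and a lowest ratio of 0.215. None of the 86 stayed off, since the lowest recovery mean among them was 8.12 CPM.

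**Figure D4:**
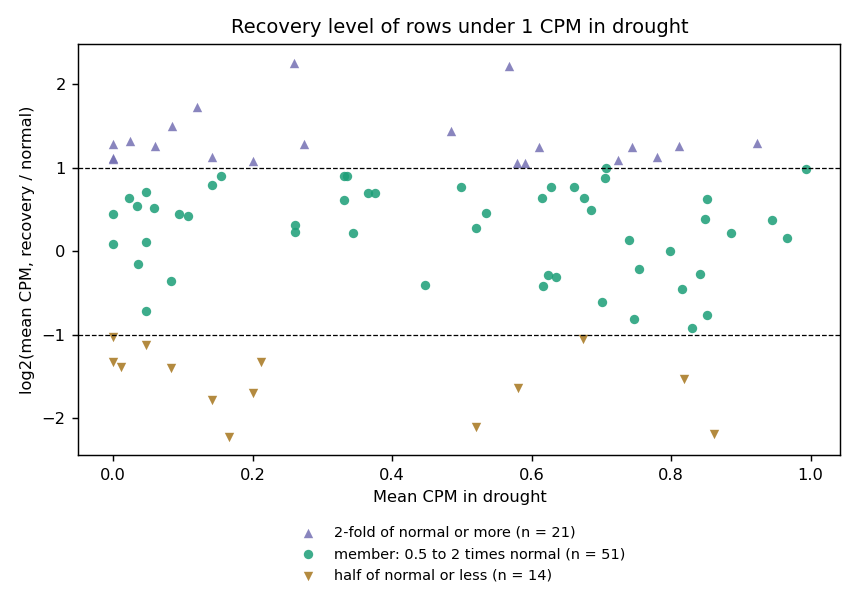
Log2 of the recovery mean over the normal mean, plotted against the drought mean (CPM) for the 86 rows under 1 CPM in drought; dashed lines mark 0.5 and 2 times normal. The 51 members form a continuous band with the 21 rows above and the 14 rows below, and no gap in the recovery ratio marks them off.

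The nearest other rows were those that fell 8-fold or more and kept at least 1 CPM in drought, 309 with 20 to 500 CPM under normal watering. Of these, 265 (85.8%) came back within 0.5 to 2 times normal, a larger share than among the rows that went off, with 26 (8.41%) at 2 times or more and 18 (5.83%) at 0.5 times or less. The median ratio of the 265 was 1.09, against 1.30 for the members. No test of this difference was made, since the rule used the same measure.

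The limits cut through a continuum. The member lowest under normal watering had 20.1 CPM, and a row that met the other limits was left out at 19.9 CPM. The highest drought mean inside was 0.993 CPM and the first outside 1.01 CPM. The ratio of recovery to normal ran from 0.530 inside, with the next row out at 0.490, to 1.99 inside, with the next row out at 2.08. No row at 500 CPM or more under normal watering met the other limits.

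To describe how far replicates gave the same rows, the rule was applied to the replicate 1 columns alone and read in replicate 2. The rule was set on means over both replicates, with earlier results of these data known. Replicates also had r = 0.998 within each wild type group, so this reading is not an independent check. It chose 56 rows, of which 39 (69.6%) met every limit again in replicate 2, where 53 of 8586 rows of that level (0.617%) met them. In replicate 2 all 56 were under 2 CPM in drought and 44 under 1 CPM, with a highest value of 1.77 CPM, and the ratio of recovery to normal was within the limits in 53. Chosen on replicate 2, 39 of 53 rows (73.6%) met every limit in replicate 1, against 0.653% of 8581 rows. These are the same 39 rows in both directions, so the directions are not separate checks. The shares over all rows of that level also include these 39 rows. In the replicate that was read, drought levels were at most 6.59% of normal in replicate 2 and 5.30% in replicate 1. The ratio of recovery to normal ran from 0.469 to 2.25 in replicate 2 and from 0.257 to 2.24 in replicate 1.

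The members were spread over the table, from row 1828 to row 56805, and the closest pair lay 65 rows apart. The rows directly before and after the members were looked at after the data had been seen. Of these 102 rows, 27 had 20 to 500 CPM under normal watering, and 7 of the 27 (25.9%) had fallen 8-fold or more in drought, beside 4.596% of all 8594 such rows. Rows 2 places away showed 0 of 20, and rows 3 to 5 places away 5 of 74 (6.76%). The 7 rows lay beside 6 members. The row before OsMH_09G0153100 had 0 and 0 counts in drought, against 43.2 and 41.1 CPM under normal watering, and 93.8 and 88.6 CPM in recovery. The row before OsMH_02G0002600 had 23.99 and 23.3 CPM in drought, against 340.6 and 330.4 CPM under normal watering, and 1339 and 1325 CPM in recovery. Whether neighbouring rows are neighbouring genes is not known, and whether such rows share reads with a member was not tested.

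**Figure D5:**
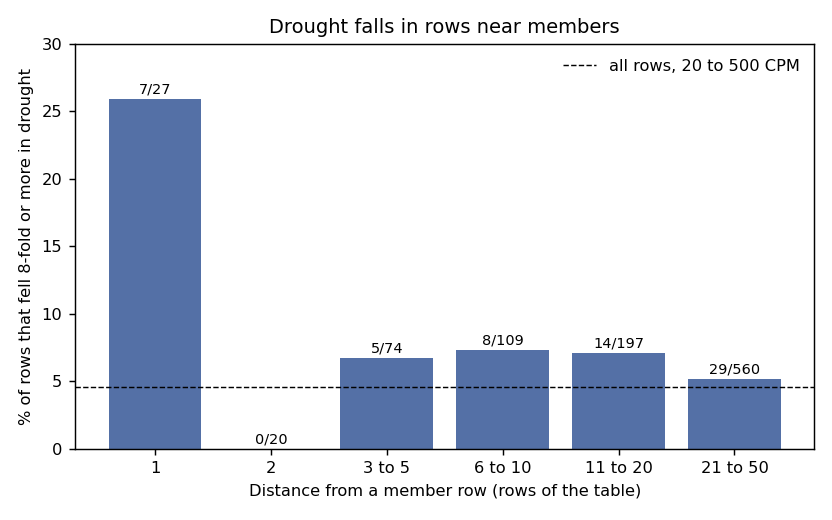
Percent of rows with 20 to 500 CPM under normal watering that fell 8-fold or more in drought, by distance in rows from a member, with counts above the bars and the share over all such rows as a dashed line. Directly adjacent rows reach 25.9% on 27 rows, and the other distances lie from 0% to 7.34%.

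In the osbzip23 columns, which the rule did not use, 29 of the 51 member rows (56.9%) had 0 counts in both libraries, as had 54.3% of all rows and 41.8% of the rows with 20 to 500 CPM in normal wild type seedlings. At a mean of 1 CPM or more were 15 (29.4%), beside 30.9% of all rows and 40.3% of the rows with 20 to 500 CPM. These values are values of rows whose genes may differ between the osbzip23 and wild type columns, and no effect of the genotype on the members can be read.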

How the data were processed

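The authors deposited whole-number counts per gene ID, 1 column per sample, per the file headers, without normalization. Tools listed in the submitters' processing notes are StringTie 2.1.7, STAR 2.7.10a and fastp 0.23.0; their roles, the genome build, annotation, strand setting and handling of shared reads are not given in the sources used here, so counts of similar or overlapping genes are uncertain. CPM used column totals (Python 3.11.15, pandas 2.3.3). The 6 wild type libraries were fitted with edgeR 4.0.16 (TMM, filterByExpr, two-sided quasi-likelihood F-test). Benjamini-Hochberg adjustment ran over 22898 rows, and rows were called at an adjusted p under 0.05. The procedure was tested on simulated data whose changes were far smaller than the members' falls in drought. That test does not cover falls of the members' size. Counting intervals are exact and conditional on both counts. Replicates came from repeated treatments of different seedling batches per the labels; nothing ties a number to a batch. The members and lists were chosen with earlier results of these data known. IDs were printed by rule: the 2 members highest under normal watering, the 2 highest in recovery (the same rows), and the 2 highest and 2 lowest ratios of recovery to normal.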

Additional observations from a re-analysis of the deposited data

Results flagged for a closer look

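In 14 of the 51 member rows (27.5%) both osbzip23 libraries lay above both wild type drought libraries, in columns that no comparison here uses. Over all rows of the table the share was 27.7%, near that of the members, and over the rows with 20 to 500 CPM under normal watering it was 10.5%. The members were chosen for a low wild type drought level, which most of those rows did not have. Osbzip23 and wild type columns also did not line up by row, so nothing about the members is read from these shares. The highest such row held 127.6 and 166.2 CPM in osbzip23.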

How the results depend on the processing

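The number of members followed the drought limit, with 24 rows at 0.5 CPM (median log2 ratio of recovery to normal 0.48) and 113 rows at 2 CPM (0.23), against 51 rows and 0.38. It was 45 rows (0.35) with TMM-scaled CPM, of which 41 were among the 51, and 39 (0.45) with the limits met in each replicate. Leaving out 1 wild type library gave 50 to 55 rows and medians of 0.31 to 0.39. All 51 members were called lower in drought and higher in recovery than in drought under every setting run on the 51 with no wild type library left out. The rule used both contrasts, so nothing is read from these calls, and in the main fit 37.3% and 38.2% of tested rows were called likewise. With 1 library left out, the median log2 change of the members was -6.22 to -6.08 in drought against normal. In recovery against drought it was 6.68 to 6.80. Against normal, 35 members were called higher and 5 lower in recovery, where 4155 and 3813 of 22898 tested rows were called. With 1 library left out, the median log2 change of the members was 0.52 to 0.61, against 0.57. With all 8 libraries the counts were 20 and 2, where 1868 and 1363 of 33074 tested rows were called. The osbzip23 rows in that fit did not line up with the wild type rows. Without TMM the counts were 28 and 10, where 11.6% and 32.1% of tested rows were called. Without the 2 members after row 40897, an alternative added after seeing the data, the counts of the main fit were 33 and 5. With the replicate number as a block the counts over the 51 were 34 and 5, where 3889 and 3535 of 22898 tested rows were called. Same-numbered deviations correlated at -0.038 to 0.037 between groups, so the numbers were not taken to pair the samples. The causes of these differences were not tested. With 2 libraries a group, p-values measure only the spread between these samples, and drought levels of members rest on at most 84 counts over both libraries.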
